A study of Mus musculus with 40 samples.

Results

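Homeostatic microglia genes were followed across 40 mouse hippocampi: Cx3cr1, P2ry12, P2ry13, Csf1r, Aif1, Itgam, Ly86, Laptm5 and Mpeg1, which mark the resident macrophages of the brain. They were chosen by name, and every probe that the platform annotation gave 1 of these 9 symbols was taken, out of 16593 genes with a probe. For 7 of the 9 genes 9 probes were found, and 7 of these probes, from 6 genes, were detected on enough arrays to be tested. No probe in the annotation used carried the symbols Csf1r or Mpeg1, which were not analysed here. The probe of Itgam was not detected on any of the 40 arrays, nor was 1 of the 3 probes of Aif1.

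All mice were 12 months old, and total hippocampal RNA was hybridised to Illumina mouse Ref-8 arrays, 1 sample to each. A sample is called a mouse here: each Tg sample has its own amyloid value, but the labels do not say that every sample came from a separate animal, and p-values measure the spread between samples. Of the mice, 28 were transgenic (Tg) for APP, the gene of the amyloid precursor protein. The promoter and the line of the transgene were not given in the sources used here. They came from 5 mixed backgrounds: 7 DBA-rich mice (75% DBA, 9% SJL, 16% B6), 3 mice with 50% DBA (42% SJL, 8% B6), 6 B6-rich mice (62.5% B6, 37.5% SJL), 6 SJL-rich mice, of 69% SJL with 31% B6, and 6 SJL-richest mice, of 84% SJL with 16% B6. The other 12 mice were non-transgenic inbred animals of strains dba2, sjl and b6 (DBA, SJL and B6 here), 4 of each. The labels also give, for each Tg mouse, the log10 of amyloid-beta 40 (Abeta40) in the guanidine fraction, the poorly soluble pool, without a unit.

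Microglia survey the brain with fine processes and clear debris and dying cells. In the resting state they express receptors that read signals from neurons: Cx3cr1 binds fractalkine, a chemokine made by neurons, and P2ry12 and P2ry13 are receptors for released nucleotides. Csf1r is the growth factor receptor on which their survival depends, and Itgam is the alpha chain of complement receptor 3. Ly86 (MD-1) is a secreted partner of the Toll-like receptor relative Cd180. Laptm5 is a lysosomal membrane protein of haematopoietic cells, Aif1 (Iba1) is a calcium-binding protein that bundles actin, and Mpeg1 is a pore-forming protein of phagocytes. In amyloid models, microglia gather at plaques, and many of these genes are known to fall in the cells that touch them.

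The 250 bases before the annotated start are shown for the 5 genes detected on all arrays, because their signals varied together from mouse to mouse. They are RefSeq sequences of GRCm38.p6, the C57BL/6J reference, written in the direction of the gene. Capitals mark GAGGAA on either strand, the core letters of sites of PU.1-type (ETS) factors of the myeloid lineage.
Ly86, chr13:37345095-37345344, + strand: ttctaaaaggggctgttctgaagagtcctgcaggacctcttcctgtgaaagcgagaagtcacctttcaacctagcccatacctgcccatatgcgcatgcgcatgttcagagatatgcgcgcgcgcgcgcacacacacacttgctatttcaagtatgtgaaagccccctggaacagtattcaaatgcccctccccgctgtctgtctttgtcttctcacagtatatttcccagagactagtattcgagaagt
Laptm5, chr4:130913066-130913315, + strand: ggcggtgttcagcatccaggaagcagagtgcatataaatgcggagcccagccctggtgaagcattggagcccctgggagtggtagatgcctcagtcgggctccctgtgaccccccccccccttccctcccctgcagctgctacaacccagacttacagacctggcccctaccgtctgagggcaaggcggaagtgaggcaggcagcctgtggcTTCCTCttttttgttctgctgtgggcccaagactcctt
Aif1, chr17:35176053-35176302, - strand: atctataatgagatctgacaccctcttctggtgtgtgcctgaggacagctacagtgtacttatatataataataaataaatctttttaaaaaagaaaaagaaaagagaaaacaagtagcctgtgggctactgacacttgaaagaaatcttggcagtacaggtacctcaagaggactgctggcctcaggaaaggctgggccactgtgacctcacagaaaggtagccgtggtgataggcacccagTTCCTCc
Cx3cr1, chr9:120068297-120068546, - strand: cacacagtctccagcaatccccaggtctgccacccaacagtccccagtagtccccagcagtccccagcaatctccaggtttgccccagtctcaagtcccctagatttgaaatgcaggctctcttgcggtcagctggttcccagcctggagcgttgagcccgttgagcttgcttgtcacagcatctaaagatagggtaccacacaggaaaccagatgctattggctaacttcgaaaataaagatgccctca
P2ry13, chr3:59210883-59211132, - strand: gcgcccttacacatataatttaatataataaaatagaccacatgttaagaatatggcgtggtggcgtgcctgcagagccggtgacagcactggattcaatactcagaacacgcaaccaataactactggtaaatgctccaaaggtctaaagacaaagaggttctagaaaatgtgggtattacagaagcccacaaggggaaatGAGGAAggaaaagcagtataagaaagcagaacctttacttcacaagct
The letters GAGGAA were present in 4 of the 8 promoters searched (all genes above except Csf1r), namely those of Laptm5, Aif1, P2ry13 and Itgam, and in 23.3% of all 32851 promoter windows of this length. Ly86 and Cx3cr1 held no match in this window. A match is a description of letters, not of a bound factor. The sequence of the DBA and SJL alleles was not used here.

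Signals below are normalized log2 intensities, and a difference of 1 is a doubling. A probe was called at an adjusted p under 0.05 from limma, adjusted over all 13589 tested probes. An array detected 41.5% to 50.0% of its probes, with raw median signals of 18.2 to 29.3. Arrays numbered 1 to 16 (the earlier set) stood apart from arrays 17 to 40 (the later set): their scores on principal component 1, which took 35.2% of the variance, were -38.6 to -20.9 and 7.16 to 37.1. Groups were therefore compared within a set. The 6 later DBA-rich, 6 SJL-rich and all 12 inbred mice were in the later set. The 1 remaining DBA-rich mouse and all 50% DBA, B6-rich and SJL-richest mice were in the earlier set. The 2 deposited tables disagreed on 8 of the 12 inbred arrays, which changed the strain of 6, and on none of the Tg arrays. The table of non-normalized signals was used. Ly86, P2ry12 in DBA against B6 mice, and counts of called probes are also given on the 6 arrays (2 per strain) whose strain was the same in both tables. The values of other genes in inbred mice rest on the strain names of the non-normalized table alone.

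Cx3cr1, Laptm5, Ly86, P2ry13 and both tested Aif1 probes were detected on all 40 arrays, so microglial transcripts were measured in every hippocampus. P2ry12 was near the detection limit, and was detected on 18 of 24 later arrays and on 1 of 16 earlier ones. Of 24 further microglial identity genes, 20 were measured, among them Tmem119, Siglech, Fcrls and Sall1. Of 12 markers of blood leukocytes, S100a8 was detected on 14 arrays and S100a9 on 4, and Ccr2, Cd3e, Cd3g, Cd79a, Cd79b, Chil3 and Ptprcap were detected on 0 arrays. Of 8 border macrophage markers 4 were measured, and Lyve1 and Pf4 were detected on 0 arrays. Hippocampal markers Prox1, Wfs1 and Ociad2 were detected on all 40 arrays, and Neurod6 on 0. In bulk tissue, fewer microglia and less RNA per microglial cell cannot be told apart. Which cells of the tissue gave the signal of a listed gene was not tested. A difference between strains in transcript level cannot be told apart from a variant in the sequence under a probe.

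Over the 8 groups, Ly86 had the widest range of the tested member probes. Its group means ran from 7.14 ± 0.25 (SD, n = 6) in SJL-richest Tg mice to 8.47 ± 0.15 (n = 4) in DBA inbred mice. The descending order was DBA inbred (8.47), DBA-rich Tg (8.38 ± 0.52, n = 7), B6 inbred (8.37 ± 0.06, n = 4), 50% DBA Tg (7.74 ± 0.22, n = 3), SJL-rich Tg (7.45 ± 0.17, n = 6), SJL inbred (7.43 ± 0.12, n = 4), B6-rich Tg (7.40 ± 0.22, n = 6) and SJL-richest Tg. Of the 7 steps between neighbours in this order, 3 exceeded the larger SD of the pair: those below B6 inbred, below 50% DBA Tg and below B6-rich Tg. The means of the other probes spanned 0.24 for Cx3cr1, 0.36 and 0.37 for the Aif1 probes, 0.49 for P2ry13, 0.50 for Laptm5 and 0.79 for P2ry12. Among those 6 probes, 1 neighbour step exceeded the larger SD, in Laptm5. These orders mix the 2 array sets.

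**Figure D1:**
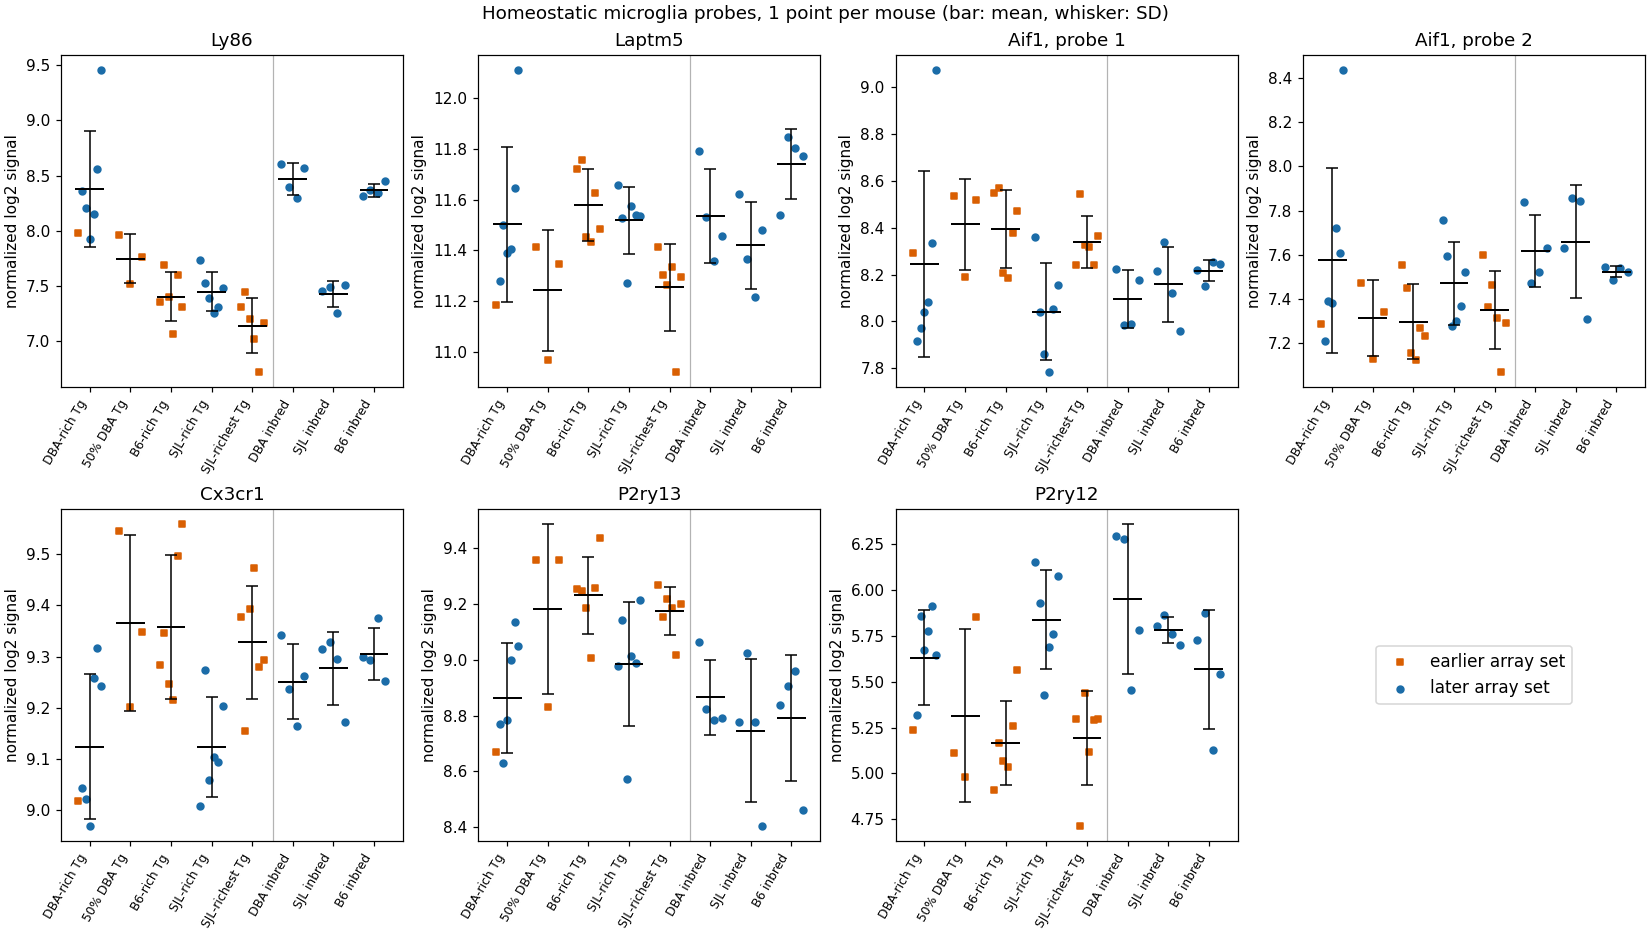
Normalized log2 signal (vertical axes, a separate scale for each panel) of the 7 tested probes in 8 groups (horizontal axes). Each point is a mouse, circles are later and squares earlier arrays, bars are means and whiskers SD; Aif1 probe 1 is ILMN_1212938 and probe 2 is ILMN_2804487. Ly86 lay between 8.29 and 8.61 in DBA inbred, 7.25 and 7.50 in SJL inbred and 8.31 and 8.45 in B6 inbred mice.

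The inbred strains answer which members differ by strain without a transgene. Ly86 (ILMN_2671923) was low in SJL mice and of similar level in the other 2 strains. Its signals were 8.61, 8.40, 8.29 and 8.57 in DBA mice, against 7.45, 7.49, 7.25 and 7.50 in SJL mice. B6 mice had 8.31, 8.37, 8.34 and 8.45. Every SJL mouse lay below every DBA and every B6 mouse, while DBA and B6 mice overlapped. Ly86 was 2.06-fold higher in DBA than in SJL mice (log2 difference 1.04 ± 0.08 SE, adjusted p = 1.79e-06). It was 1.92-fold lower in SJL than in B6 mice (-0.94 ± 0.08, adjusted p = 4.66e-06). Between DBA and B6 mice it differed by 0.10 (95% interval -0.08 to 0.29, adjusted p = 0.542).

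Ly86 was the 1 member probe of 7 called in DBA against SJL mice, where 11.2% of all probes were called and 5.84% were called higher. It was also the 1 called in SJL against B6 mice, where 13.5% were called and 7.01% were called lower. None of the 7 was called in DBA against B6 mice, where 12.3% of all probes were. The groups of 1 member probe, Ly86, did not overlap in DBA against SJL (15.5% of all probes) and in SJL against B6 mice (19.4%), and of 0 in DBA against B6 mice (18.2%). On the 6 arrays whose strain agreed in both tables, the difference was 1.13 for DBA against SJL (adjusted p = 0.00532) and -1.01 for SJL against B6 (adjusted p = 0.00814). There the DBA arrays (31 and 32) and the SJL arrays (39 and 40) lay in different runs of 8 array numbers, so run and strain cannot be told apart for that pair. With the strains that the other table gives, Ly86 no longer passed: 0.54 (adjusted p = 0.429) and -0.03 (adjusted p = 0.991). Under those strain names the 4 B6 arrays read 7.45, 7.49, 8.34 and 8.45 and the 4 SJL arrays 8.29, 8.57, 7.25 and 7.50, so both strains held a high and a low pair. Among arrays 33 to 40, the run by number that held all 3 strains, the difference was 1.01 for DBA against SJL and -0.97 for SJL against B6.

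The lysosomal gene Laptm5 (ILMN_1217849) read 11.62, 11.36, 11.22 and 11.48 in SJL mice, against 11.54, 11.85, 11.80 and 11.77 in B6 mice. The ranges overlapped by the highest SJL and the lowest B6 mouse. The difference of -0.32 (95% interval -0.56 to -0.07) had an adjusted p of 0.0884, and of 0.0431 with trended, robust variances. DBA mice read 11.79, 11.53, 11.36 and 11.46, and differed from B6 by -0.20 (adjusted p = 0.309) and from SJL by 0.11 (adjusted p = 0.610).

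Of the receptors, Cx3cr1 (ILMN_2625125) was nearly level over the strains. It read 9.34, 9.24, 9.16 and 9.26 in DBA mice, 9.31, 9.33, 9.30 and 9.17 in SJL mice, and 9.30, 9.29, 9.37 and 9.25 in B6 mice. Its 3 strain differences lay between -0.05 and -0.03, and the 95% interval for DBA against B6 ran from -0.19 to 0.08. P2ry13 (ILMN_2640346) read 9.07, 8.82, 8.78 and 8.79 in DBA mice, 8.78, 9.03, 8.78 and 8.40 in SJL mice, and 8.84, 8.91, 8.96 and 8.46 in B6 mice. All 3 of its ranges overlapped, and the differences were 0.08 for DBA against B6 and 0.12 for DBA against SJL, with -0.04 for SJL against B6.

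P2ry12 (ILMN_2840082) was detected on 2 of 4 DBA, 3 of 4 SJL and 2 of 4 B6 arrays. It read 6.29, 6.28, 5.46 and 5.78 in DBA mice, against 5.73, 5.87, 5.13 and 5.54 in B6 mice, and 5.81, 5.87, 5.76 and 5.70 in SJL mice. The fitted difference of DBA against B6 was 0.39 (95% interval -0.03 to 0.80, adjusted p = 0.252). No bound is given for it, since some DBA arrays did not detect the probe either. It passed with runs of 8 array numbers as a block (0.39, adjusted p = 0.0285) and on the 6 arrays of agreeing strain (adjusted p = 0.0157). On those 6 the DBA arrays, numbered 31 and 32, both detected P2ry12 and the B6 arrays, 35 and 36, did not, so the signals bound it at at least 1.44-fold. Those 2 pairs lie in different runs, and run and strain cannot be told apart there. With the block SJL against B6 also passed (adjusted p = 0.0145, and 0.538 without it). The run that holds both strains detected it on 3 of 4 SJL and 0 of 2 B6 arrays, so no bound is given.

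Aif1 (Iba1) did not pass in any strain pair with either probe. Probe ILMN_1212938 read 8.22, 7.99, 7.99 and 8.18 in DBA mice, 8.21, 8.34, 8.12 and 7.96 in SJL mice, and 8.22, 8.15, 8.26 and 8.24 in B6 mice. Probe ILMN_2804487 read 7.84, 7.47, 7.52 and 7.63 in DBA mice, 7.63, 7.86, 7.85 and 7.31 in SJL mice, and 7.54, 7.49, 7.54 and 7.52 in B6 mice. The 2 probes differed in sign for DBA against B6 (-0.12 and 0.09) and for SJL against B6 (-0.06 and 0.14), within their standard errors of 0.09 and 0.12 or near them.

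**Figure D2:**
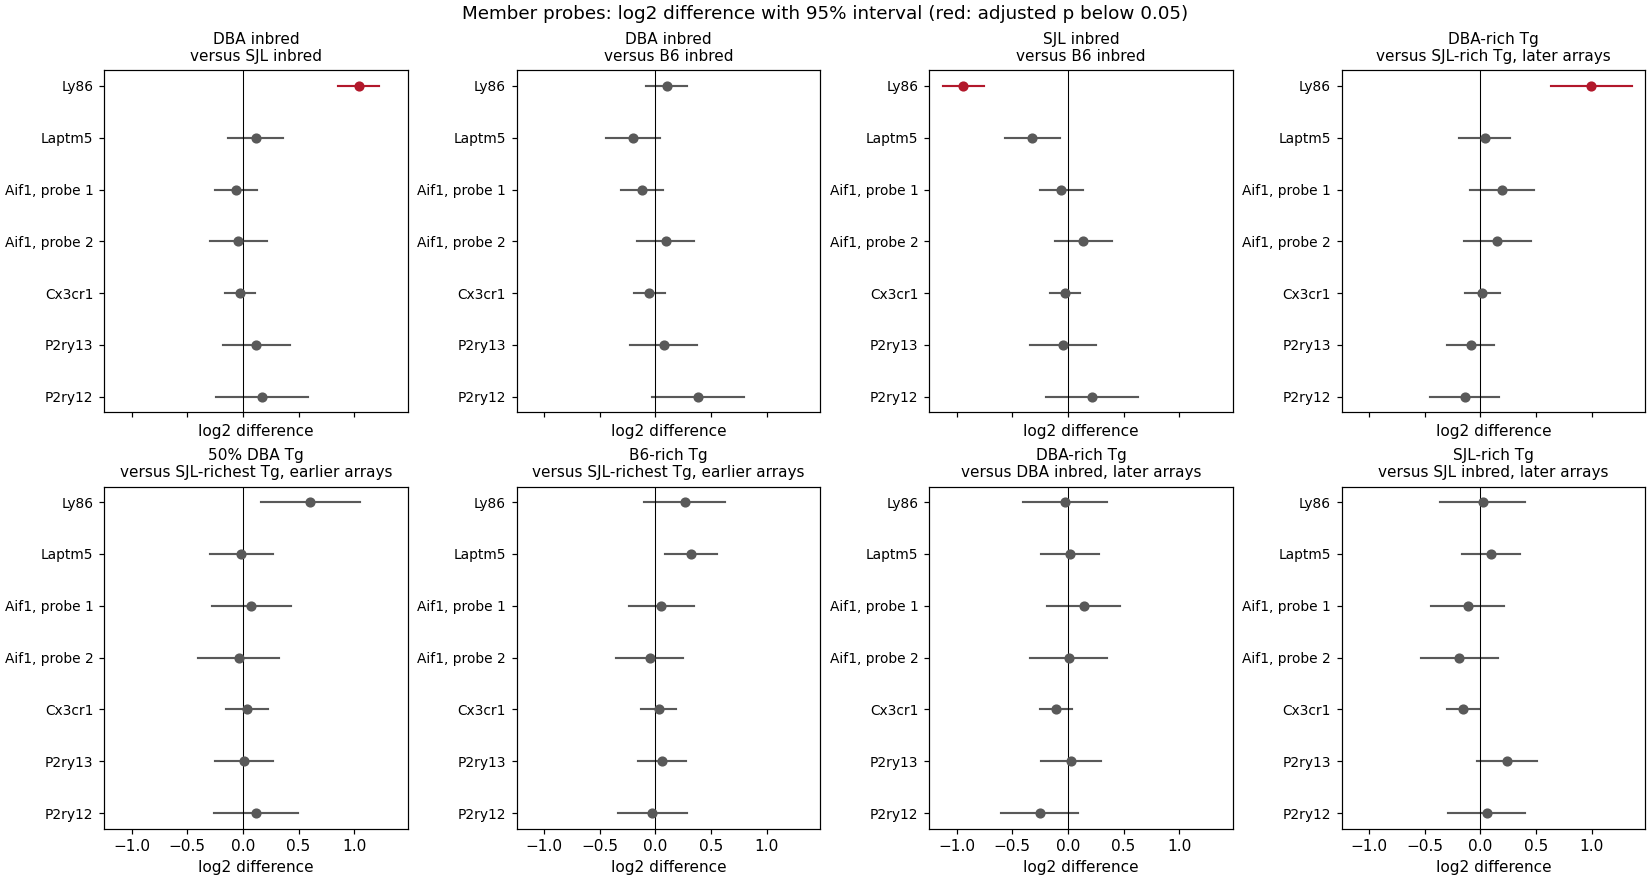
Log2 difference (horizontal axes) of the 7 tested probes (vertical axes) in 8 comparisons, the group named first minus the group named after "versus". Points are limma estimates, lines are 95% intervals and red marks an adjusted p under 0.05; Ly86 was red for DBA against SJL inbred (1.04), SJL against B6 inbred (-0.94) and DBA-rich against SJL-rich Tg mice (1.00).

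The mixed backgrounds ask whether members differ with the share of a strain in APP Tg mice. Ly86 read 8.36, 8.20, 7.93, 8.15, 8.56 and 9.46 in the 6 later DBA-rich Tg mice, against 7.73, 7.53, 7.39, 7.25, 7.31 and 7.48 in the 6 SJL-rich Tg mice. The lowest DBA-rich mouse lay above the highest SJL-rich mouse, and DBA-rich mouse 7 stood well above the rest at 9.46. Ly86 was 1.99-fold higher in DBA-rich than in SJL-rich Tg mice (1.00 ± 0.18 SE, adjusted p = 0.000394). It was the 1 of 7 member probes called, where 8.46% of all probes were called and 3.57% were called higher, and the 1 without overlap, where 4.86% of all probes had none. Without mouse 7 the Ly86 difference was 0.79 (adjusted p = 0.000187). With runs of 8 array numbers as a block it no longer passed (0.83, adjusted p = 0.0576), since a single run, arrays 17 to 24, held both backgrounds, with 2 DBA-rich and 6 SJL-rich mice.

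The earlier set gave the same direction without passing the test. Ly86 read 7.96, 7.51 and 7.76 in 50% DBA Tg mice, against 7.30, 7.44, 7.20, 7.02, 6.72 and 7.16 in SJL-richest Tg mice. All 3 mice with 50% DBA lay above all 6 SJL-richest mice. The difference was 0.61 ± 0.22 SE (95% interval 0.16 to 1.05, adjusted p = 0.137). No member probe was called, where 2.36% of all probes were, and Ly86 was the 1 without overlap, where 8.18% were. The single DBA-rich mouse on an earlier array read 7.98, above every other Tg mouse of that set.

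B6-rich Tg mice read 7.35, 7.69, 7.40, 7.06, 7.60 and 7.31 for Ly86, against the same 6 SJL-richest mice. These groups overlapped, and the difference of 0.26 (95% interval -0.10 to 0.63) did not pass (adjusted p = 0.493). B6 inbred mice, at 8.31 to 8.45, lay above every B6-rich Tg mouse, but they were hybridised in the later set and the B6-rich mice in the earlier one, so strain share, transgene and array set cannot be told apart there.

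Laptm5 was the member whose B6-rich and SJL-richest mice did not overlap. It read 11.72, 11.76, 11.45, 11.43, 11.63 and 11.48 in B6-rich Tg mice, against 11.41, 11.30, 11.26, 11.34, 10.92 and 11.30 in SJL-richest Tg mice. The difference was 0.32 ± 0.11 SE, with an adjusted p of 0.129. No member was called, where 2.44% of all probes were, and 1.65% of all probes showed no overlap. In the later set Laptm5 read 11.28, 11.50, 11.39, 11.41, 11.65 and 12.11 in DBA-rich mice, against 11.66, 11.53, 11.27, 11.58, 11.54 and 11.53 in SJL-rich mice, a difference of 0.04 (95% interval -0.20 to 0.27).

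No receptor passed the test between backgrounds. Cx3cr1 read 9.04, 9.02, 8.97, 9.26, 9.32 and 9.24 in later DBA-rich Tg mice, against 9.01, 9.27, 9.06, 9.10, 9.09 and 9.20 in SJL-rich Tg mice, and differed by 0.02 (95% interval -0.14 to 0.17). P2ry13 read 8.77, 8.63, 8.78, 9.00, 9.14 and 9.05 in later DBA-rich Tg mice, against 8.98, 9.14, 8.57, 9.01, 8.99 and 9.21 in SJL-rich Tg mice, a difference of -0.09 (95% interval -0.30 to 0.13). P2ry12 was detected on 5 of 6 DBA-rich and 6 of 6 SJL-rich later arrays and differed by -0.14 (adjusted p = 0.652). It was not detected on any B6-rich or SJL-richest array, so no fold is given between them.

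In the earlier set Cx3cr1 had group means of 9.37 ± 0.17 (SD, n = 3) in 50% DBA, 9.36 ± 0.14 (n = 6) in B6-rich and 9.33 ± 0.11 (n = 6) in SJL-richest mice. P2ry13 had 9.18 ± 0.30, 9.23 ± 0.14 and 9.17 ± 0.09 in the same 3 groups. Aif1 by probe ILMN_1212938 ran from 7.92 to 9.07 (median 8.06) in later DBA-rich mice and from 7.78 to 8.36 (median 8.05) in SJL-rich mice, a difference of 0.19 (adjusted p = 0.473). Probe ILMN_2804487 gave 0.15 (adjusted p = 0.602). The 2 Aif1 probes stood in opposite order between the array sets: the B6-rich and SJL-richest means were 8.39 and 8.34 by the first probe and 7.30 and 7.35 by the second, against SJL-rich means of 8.04 and 7.47.

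Tg and inbred mice of the nearest strain were compared within the later set, which asks about the transgene together with the remaining background. Ly86 in DBA-rich Tg mice differed from DBA inbred mice by -0.03 (95% interval -0.41 to 0.36, adjusted p = 0.962). In SJL-rich Tg mice it differed from SJL inbred mice by 0.02 (95% interval -0.36 to 0.40, adjusted p = 0.955). No member probe was called in either comparison, where 1.87% (DBA side) and 15.9% (SJL side) of all probes were. None had groups without overlap, where 4.39% and 12.3% of all probes did. The change between the DBA and the SJL side differed by -0.05 for Ly86 (adjusted p = 0.966), and 0 of 7 members were called in that interaction, where 0.397% of probes were. The 6 SJL-rich Tg mice were on arrays 18 to 23, which detected 47.4% to 50.0% of probes, and the 4 SJL inbred mice on arrays 33, 34, 39 and 40, which detected 43.2% to 43.9%. No run of 8 held both groups, so run, transgene and remaining background cannot be told apart there. With the runs as a block, which joins these groups only through the other groups, 15 of all probes (0.11%) were called in place of 2164.

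Cx3cr1 came nearest among the members. The 6 SJL-rich Tg mice listed above ran from 9.01 to 9.27, against 9.17 to 9.33 in SJL inbred mice, with overlap. The difference was -0.15 (95% interval -0.30 to -0.01, adjusted p = 0.135), and -0.02 with the run block (adjusted p = 0.989). In later DBA-rich Tg against DBA inbred mice it was -0.11 (95% interval -0.25 to 0.03, adjusted p = 0.448). A single Tg term over the later arrays, with percent SJL and percent DBA as covariates, gave -0.14 ± 0.04 SE and passed (adjusted p = 0.0248), where 21.3% of all probes passed. Arrays 17 to 24 held Tg mice alone and arrays 33 to 40 inbred mice alone. Run and transgene therefore cannot be told apart over those arrays, and the run block was not fitted with this term. P2ry13 differed by 0.24 in SJL-rich Tg against SJL inbred mice (adjusted p = 0.218) and by 0.03 in DBA-rich Tg against DBA inbred mice (adjusted p = 0.936).

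Abeta40 was lower in DBA-rich mice: its log10 level ran from 3.86 to 4.60 (median 4.12) in DBA-rich mice, 4.43 to 4.69 in 50% DBA, 4.06 to 5.05 in B6-rich, 4.62 to 5.49 (median 4.93) in SJL-rich and 4.32 to 5.16 in SJL-richest mice. The slope of a member on log10 Abeta40 therefore shares its source with the background comparison above and is not separate from it. Ly86 had a slope of -0.72 ± 0.21 SE log2 units per unit of log10 Abeta40 over the 28 Tg mice (adjusted p = 0.0791), where no member and 1.51% of all probes were called. With the array set as a term the slope was -0.69 ± 0.18 and passed (adjusted p = 0.0310), as 1 of 7 member probes, where 3.71% of all probes passed and 1.51% passed with a negative slope. With both background and array set as terms it was 0.01 (95% interval -0.45 to 0.47, adjusted p = 1.00). In that fit limma called 0 of 13589 probes, 604 of which had an unadjusted p under 0.05.

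Within the array sets, the Ly86 slope was -1.04 in the 12 later Tg mice (adjusted p = 0.0293) and -0.11 in the 16 earlier ones (adjusted p = 0.962). The difference between these slopes was -0.93 ± 0.33 SE, with an unadjusted p of 0.00961 and an adjusted p of 0.984. limma called 0 probes for it, with 643 at an unadjusted p under 0.05. DBA-rich mouse 7 had both the highest Ly86 signal and the lowest Abeta40 of the study. Without it the later slope was -0.78 (adjusted p = 0.0509) and the slope with array set as a term -0.49 (adjusted p = 0.103).

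The other members had slopes near 0. With array set as a term they were 0.03 for Laptm5 (95% interval -0.18 to 0.24), 0.07 for Cx3cr1 (-0.06 to 0.20), 0.14 for P2ry13 (-0.04 to 0.33) and 0.07 for P2ry12 (-0.17 to 0.31). P2ry12 was detected on 1 of the 16 earlier arrays, so its slope rests there on signals near the detection limit. The 2 Aif1 probes gave -0.11 and -0.05. None passed, and the lowest adjusted p among them was 0.450, for P2ry13.

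**Figure D3:**
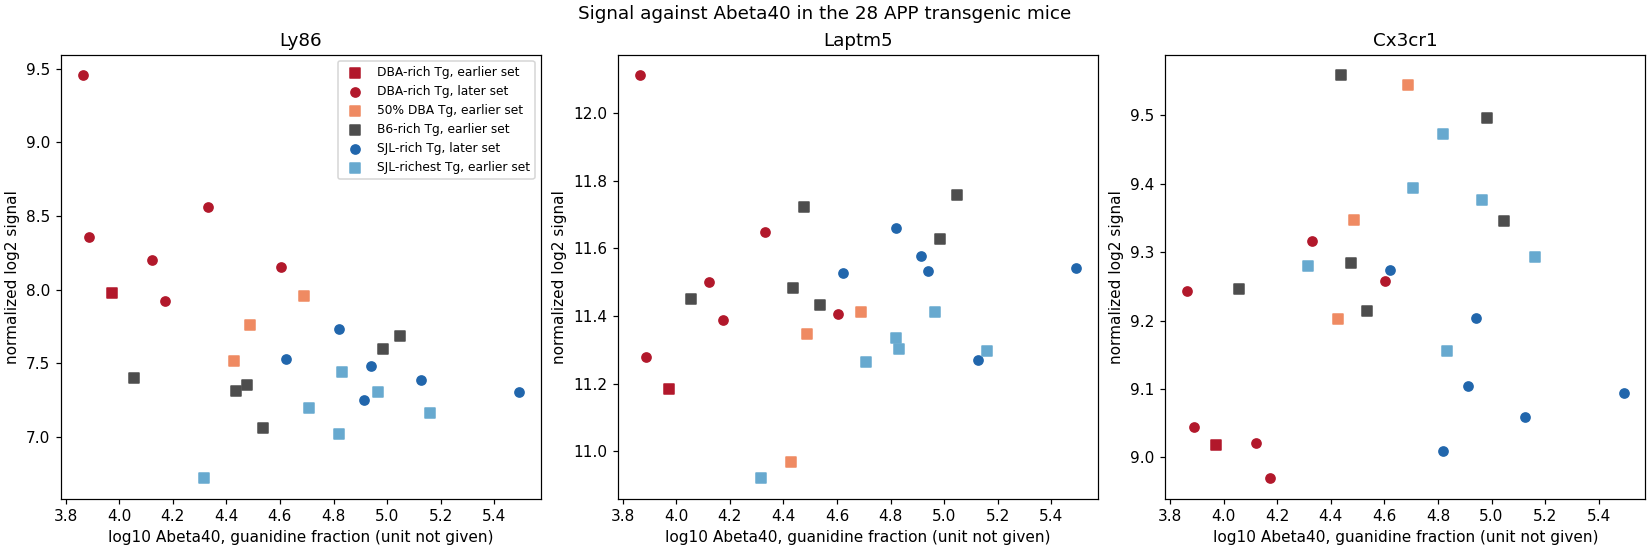
Normalized log2 signal (vertical axes) of Ly86, Laptm5 and Cx3cr1 against log10 Abeta40 of the guanidine fraction (horizontal axes, unit not given) in 28 Tg mice. Points are mice, coloured by background, with squares for earlier and circles for later arrays; for Ly86 the DBA-rich mice lie at low Abeta40 and high signal, from 7.93 to 9.46.

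From mouse to mouse, the members varied together. After group and array set means were removed, all 21 pairs of the 7 probes had a positive Pearson r over 40 arrays, from 0.07 to 0.86 with a median of 0.44. These values are a description: the probes share arrays and normalization. The highest were 0.86 between the 2 Aif1 probes, 0.82 between Aif1 (ILMN_1212938) and Ly86, 0.77 between Laptm5 and Ly86 and 0.72 between Aif1 (ILMN_1212938) and Laptm5. Cx3cr1 and P2ry13 had 0.71. The neighbouring genes P2ry12 and P2ry13, next to each other among protein-coding genes on chromosome 3, had 0.44, and P2ry12 and Ly86 had the lowest.

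DBA-rich mouse 7 was highest of its background for Ly86 (9.46), Laptm5 (12.11) and both Aif1 probes (9.07 and 8.44) but not for Cx3cr1 or P2ry13. Without it all 21 pairs were still positive over 39 arrays, from 0.13 to 0.73. Aif1 (ILMN_1212938) and Ly86 then had 0.61, Laptm5 and Ly86 0.64, the 2 Aif1 probes 0.73 and Cx3cr1 and P2ry13 0.70. Spread within groups also set the probes apart: the residual SD was 0.12 for Cx3cr1, higher than in 24.6% of tested probes, and 0.28 for Ly86, higher than in 88.1%.

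**Figure D4:**
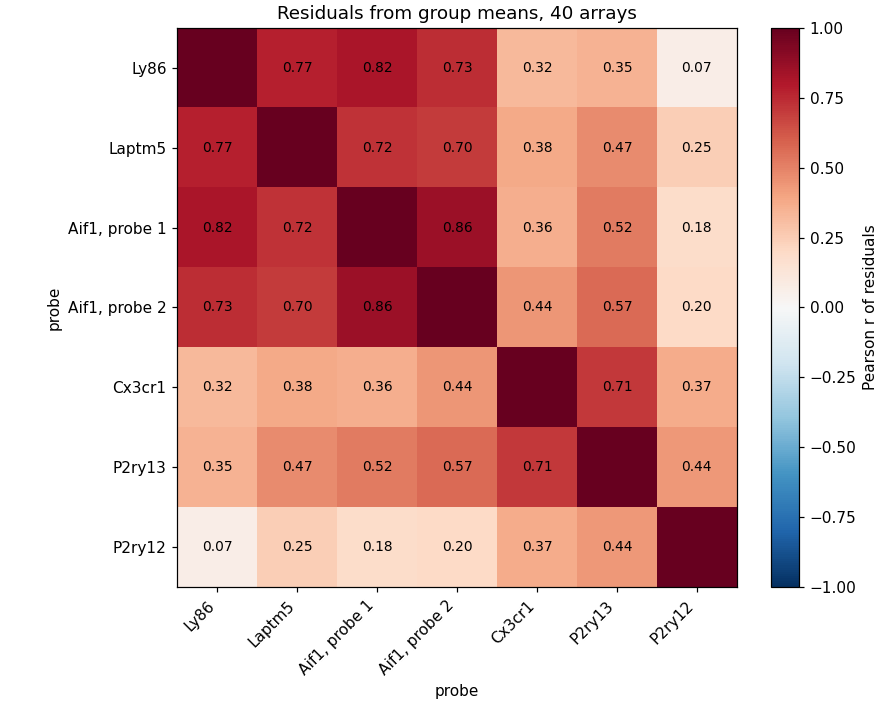
Pearson r (colour and printed values) between the 7 tested probes (both axes) over 40 arrays, computed on residuals from the means of each group and array set. The highest off-diagonal value was 0.86, between the 2 Aif1 probes, and the lowest 0.07, between Ly86 and P2ry12.

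The 10 genes whose residuals were most like the mean residual of the 6 tested members (1 probe each) over the 40 arrays were Pld4, Sec11c, Zbtb18, Hk3, Klhl6, Fgf10, Unc93b1, Cst7, Lmcd1 and B2m, with Pearson r of 0.69 for Pld4, 0.68 for Sec11c and 0.64 for B2m. Of these, Cst7 was detected on 7 of the 40 arrays. The ranking was made with DBA-rich mouse 7 included. The microglial genes Tyrobp, Tmem119, Siglech and Trem2 came at places 18, 19, 41 and 72 of the ranking.

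Of the 20 other microglial identity genes measured, 2 were called in DBA against SJL inbred mice, where 11.2% of all probes were, 3 in SJL against B6 mice (13.5%) and 5 in DBA against B6 mice (12.3%). With the strains that the other table gives, 93, 0 and 78 of all probes passed in the same 3 comparisons. In DBA against SJL mice Olfml3, a secreted matrix protein, was higher (0.73, adjusted p = 0.000893) and Selplg, the P-selectin ligand, was lower (-0.55, adjusted p = 0.00209). The list's median difference was -0.03 there, beside 0.01 over all probes. In SJL against B6 mice Rnase4 was higher (1.11, adjusted p = 7.21e-06), and Olfml3 (-0.78, adjusted p = 0.000498) and the lectin Siglech (-0.74, adjusted p = 0.000690) were lower. In DBA against B6 mice 1 was higher (Rnase4, 1.10, adjusted p = 7.57e-06) and 4 were lower, among them Selplg (-0.54, adjusted p = 0.00209) and Siglech (-0.54, adjusted p = 0.00721). In DBA-rich against SJL-rich Tg mice the nucleotide receptor P2ry6 was the 1 of 20 called (-0.30, adjusted p = 0.0312), beside 8.46% of all probes, and in 50% DBA against SJL-richest Tg mice it was Sparc (0.57, adjusted p = 0.0428), beside 2.36%. With the run block neither passed (adjusted p = 0.168 for P2ry6 and 0.226 for Sparc). In SJL-rich Tg against SJL inbred mice Bin1 (0.18, adjusted p = 0.0445) and Gpr183 were higher and Rnase4 was lower (-0.46, adjusted p = 0.00791). Gpr183 was detected on 3 of 6 Tg and 0 of 4 inbred arrays. With the run block 0 of the 20 passed in that comparison, with adjusted p of 0.660 for Bin1, 0.935 for Gpr183 and 0.730 for Rnase4.

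Of 9 ligands of microglial receptors, which include the Cd200 and TGF-beta receptors beside those of the members, 7 were measured. In DBA against B6 mice 12.3% of all probes were called, in DBA against SJL 11.2% and in SJL against B6 mice 13.5%. Cx3cl1, the fractalkine ligand of Cx3cr1, and Il34, a ligand of Csf1r, were detected on all 40 arrays and called in none of the strain pairs. Cd200, a neuronal surface protein that restrains microglia, was lower in DBA than in B6 mice (-2.37, adjusted p = 5.73e-09), lower in DBA than in SJL mice (-1.04, adjusted p = 2.01e-05) and lower in SJL than in B6 mice (-1.33, adjusted p = 1.79e-06). It was higher in B6-rich than in SJL-richest Tg mice (1.25, adjusted p = 0.0313), where 2.44% of all probes were called. Csf1, the other ligand of Csf1r, was at least 1.26-fold lower in DBA than in B6 mice (adjusted p = 0.0204). Tgfb2 was lower in DBA than in SJL mice (-0.43, adjusted p = 0.0283), higher in SJL than in B6 mice (0.51, adjusted p = 0.0105), and lower in SJL-rich Tg than in SJL inbred mice (-0.66, adjusted p = 0.000896). With the run block it no longer passed in DBA against SJL (adjusted p = 0.0608) or in SJL-rich Tg against SJL inbred mice (adjusted p = 0.540). Tgfb1, detected on 5 of the 40 arrays, was called higher in SJL-rich Tg than in SJL inbred mice (adjusted p = 0.00286), beside 15.9% of all probes. Icam1 was called lower there (-0.76, adjusted p = 0.0297). Tgfb1 was called lower in DBA-rich than in SJL-rich Tg mice (adjusted p = 0.0120), beside 8.46%. Its Tg minus inbred change differed between the DBA and SJL sides (adjusted p = 0.0436), beside 0.397%. With the run block each had an adjusted p of 0.459 or more.

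Of 22 partners and signalling proteins, 13 were measured, and Cd180, the receptor that Ly86 joins, was detected on 0 arrays. Ly96 (MD-2), the relative of Ly86 that joins Tlr4, was detected on 4 of 4 B6 arrays and on none of the DBA and SJL arrays. It was at least 1.29-fold lower in DBA than in B6 mice (adjusted p = 5.86e-06) and at least 1.21-fold lower in SJL than in B6 mice (adjusted p = 7.66e-05). Tyrobp, the adaptor of Trem2, was lower in DBA (-0.56, adjusted p = 0.0160) and in SJL mice (-0.50, adjusted p = 0.0274), each against B6. None of the 13 was called in DBA against SJL mice, where 11.2% of all probes were called. Nor was any called in a comparison of Tg mice, where 1.87% to 15.9% of all probes were called between groups. Of 12 myeloid transcription factors 7 were measured, and Spi1, which encodes PU.1, and Runx1 were detected on 0 arrays. Mef2a was higher in DBA than in SJL inbred mice (0.26, adjusted p = 0.0279) and in SJL-rich Tg than in SJL inbred mice (0.36, adjusted p = 0.0122), and passed in neither with the run block (adjusted p = 0.0987 and 0.966). Whether the Mef2a signal came from myeloid or other cells was not tested.

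Of 32 genes of plaque-associated microglia 26 were measured, and 9 of these were called in SJL-rich Tg against SJL inbred mice, 5 higher and 4 lower, where 15.9% of all probes were called. Those groups share no run of arrays, and with the run block 0 of the 26 were called. Gpnmb, a membrane glycoprotein of lysosomes, was higher (1.22, adjusted p = 8.76e-06), as was the lipid receptor Trem2 (0.64, adjusted p = 0.000438). The proteases Ctsd (at least 1.54-fold, adjusted p = 0.000905) and Ctss (adjusted p = 0.00103) were lower. Ctsd was detected on 1 of 6 Tg and 4 of 4 inbred arrays. Ctss was detected on 0 of 6 Tg and 2 of 4 inbred arrays, so no bound is given for it. With the block Gpnmb had 0.85 (adjusted p = 0.274), Trem2 0.67 (adjusted p = 0.284), Ctsd -0.41 (adjusted p = 0.769) and Ctss -0.72 (adjusted p = 0.470). For Gpnmb the change differed between the DBA and the SJL side (-1.05, adjusted p = 0.00620). With the block this did not pass (-0.84, adjusted p = 0.288). Gpnmb and Trem2 also differed between inbred strains. Mean Gpnmb was 6.45 in SJL, 7.32 in DBA and 8.26 in B6 inbred mice, beside 7.67 in SJL-rich Tg mice. It was lower in SJL than in B6 mice (-1.81, adjusted p = 4.04e-07). Mean Trem2 was 7.10 in SJL and 7.80 in DBA inbred mice (0.70, adjusted p = 0.000107), beside 7.74 in SJL-rich Tg mice. SJL-rich Tg mice carry a share of B6, and the part of background in these Tg differences was not tested. None of the 26 was called in DBA-rich Tg against DBA inbred mice, where 1.87% of all probes were. With the run block 1 of the 26 was called lower there, beside 1.16% of all probes. None was called in DBA-rich against SJL-rich Tg mice, beside 8.46% of all probes. In DBA against B6 inbred mice 1 of the 26 was called higher and 6 lower, beside 12.3% of all probes. In SJL against B6 mice 1 was called higher and 5 lower, beside 13.5%. The 1 called higher was Lpl in both (1.39, adjusted p = 3.83e-07, and 1.42, adjusted p = 3.10e-07). The Fc receptor gamma chain Fcer1g was detected on 4 of 4 B6 arrays and on none of the other inbred arrays, at least 13.3-fold lower in DBA and at least 12.5-fold lower in SJL mice.

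Markers of other cells moved beside the Ly86 comparisons in part, and their share in the result was not tested. The summed linear signal of 6 oligodendrocyte markers ranged from 29681 to 40962 in later DBA-rich Tg mice, against 38795 to 47097 in SJL-rich Tg mice. Of the 6, 4 were called lower, where 8.46% of all probes were called, and 2 with the run block, where 4.15% were. In inbred mice it ranged from 29135 to 38371 in DBA, 29949 to 41727 in SJL and 43944 to 51345 in B6 mice. Of 4 border macrophage markers, Stab1 was called lower in DBA than in B6 mice, at least 1.14-fold (adjusted p = 0.0152), beside 12.3% of all probes. Their sum ranged from 168 to 268 in later DBA-rich Tg mice, against 152 to 368 in SJL-rich Tg mice, with none called. In inbred mice it ranged from 177 to 279 in DBA, 187 to 458 in SJL and 188 to 292 in B6 mice. The sum of 2 blood leukocyte markers ranged from 47.5 to 98.1 in later DBA-rich Tg mice and from 51.9 to 239 in SJL-rich Tg mice. In inbred mice it ranged from 51.9 to 332 in DBA, 54.4 to 733 in SJL and 51.5 to 293 in B6 mice. The sum of the 20 other microglial identity genes ranged from 32343 to 34471 in later DBA-rich Tg mice, against 30147 to 31675 in SJL-rich Tg mice, without overlap. In inbred mice that sum ranged from 34896 to 36542 in DBA, 29235 to 34325 in SJL and 33646 to 38030 in B6 mice, and DBA and SJL mice did not overlap. A linear sum rests most on its brightest genes, here Cst3 at a mean log2 signal of 14.2, with Bin1 next at 11.6. The list's median log2 difference was 0.07 in DBA-rich against SJL-rich Tg mice and -0.03 in DBA against SJL inbred mice.

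Of 5 neuronal markers 2, Slc17a7 and Syt1, were called lower in DBA against SJL inbred mice, where 11.2% of all probes were called. The same 2 were called lower in DBA-rich against SJL-rich Tg mice, beside 8.46% of all probes. The list medians were -0.04 and -0.08. The sum of the 5 ranged from 26851 to 28647 in later DBA-rich Tg mice, against 28763 to 36818 in SJL-rich Tg mice. In inbred mice it ranged from 26810 to 29702 in DBA, 34510 to 38110 in SJL and 29783 to 30034 in B6 mice. Slc17a7, the vesicular glutamate transporter, was lower in DBA than in SJL inbred mice (-1.96, adjusted p = 8.05e-09) and in DBA-rich than in SJL-rich Tg mice (-1.42, adjusted p = 6.01e-05). Prox1, a marker of dentate granule cells, was also lower in DBA-rich than in SJL-rich Tg mice (-0.51, adjusted p = 0.0233). The summed signal of 5 astrocyte markers ranged from 22558 to 25939 in later DBA-rich Tg mice, against 22588 to 26927 in SJL-rich Tg mice, and Aldh1l1 was called higher (0.24, adjusted p = 0.0385), though not with the run block (adjusted p = 0.0835). The sum of 6 choroid plexus markers differed widely within groups, from 3400 to 50436 in later DBA-rich Tg mice and from 4041 to 44797 in SJL-rich Tg mice.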

How the data were processed

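Hippocampal RNA of 40 samples was measured, 1 array each. The deposited non-normalized table holds signal intensity for 25697 probes, and, per the file headers, a detection p-value, which was near 1 for bright probes and was read as 1 minus p. The software behind these values is not named in the files or labels. The authors' second deposited table of intensity served as an alternative. All 40 arrays were normalized with neqc of limma 3.58.1 (R 4.3.3, statmod 1.5.0; offset 16). Testing covered the 13589 probes that 4 or more arrays detected (p up to 0.01), with lmFit and eBayes, Benjamini-Hochberg at 0.05; limma gave every adjusted p. Symbols are those of the platform annotation (23978 probes with 1 symbol), updated by Entrez number for 23962. For a probe not detected on some array of the dimmer group, a bound was taken against the lowest detected signal. It is given only where every array of the brighter group detected the probe. The code was tested on simulated data.

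All member probes were named, with up to 2 called genes per list, comparison and direction by the largest moderated t and the 10 genes most like the members. The lists cover other microglial identity genes, ligands, transcription factors, partners, plaque-associated microglia, border macrophages, blood leukocytes, astrocytes, oligodendrocytes, neurons, choroid plexus and hippocampus. Members and lists were chosen with earlier results of these data known. Comparisons were made within array sets (numbers 1 to 16 and 17 to 40). Runs of 8 array numbers are inferred; the files name no slide. Alternatives covered the value table, background correction, filters, variances, the methods' tests, other models and subsets of arrays. The run block for list genes was added after seeing the data.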

Additional observations from a re-analysis of the deposited data

Results flagged for a closer look

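Of 49 sets of a probe and a group, 7 held a mouse that stood apart from the rest of its group by Dixon's test at the 95% level, which chance alone marks in about 1 of 20 sets. DBA-rich Tg mouse 7 was highest in 3 of them: Ly86 at 9.46, with 8.56 next, Aif1 (ILMN_1212938) at 9.07, with 8.33 next, and Aif1 (ILMN_2804487) at 8.44, with 7.72 next. SJL-rich Tg mouse 3 was lowest for Laptm5, at 11.27 with 11.53 next, and for P2ry13, at 8.57 with 8.98 next. SJL-richest Tg mouse 5 was lowest for Laptm5, at 10.92 with 11.26 next. DBA inbred mouse 1 was highest for P2ry13, at 9.07 with 8.82 next. No member's Tg minus inbred difference passed the test of a difference between the DBA and the SJL side.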

How the results depend on the processing

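Of 1989 alternative values of 91 probe results, 1967 kept their side of the threshold, 13 lost a call, 9 gained one and 0 called values turned sign. Among the 1967 were 162 values, not called in either setting, that had the other sign. Most that moved concern Ly86.

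The number of member probes called was 1 in DBA against B6 inbred mice with runs of 8 array numbers as a block and 1 on the arrays of agreeing strain (0 otherwise; P2ry12 in both). It was 0 under the value table's strains in DBA against SJL and 0 in SJL against B6 mice (Ly86 lost). In SJL against B6 mice it was 2 with trended, robust variances (with Laptm5) and 2 with the block (with P2ry12). In DBA-rich against SJL-rich Tg mice the block left 0. With a Tg term and percent SJL and DBA as covariates it was 1 (Cx3cr1), in a single fit that stands for both Tg against inbred comparisons. For the Abeta40 slope over all Tg arrays it was 1 on later arrays only and 0 to 1 with single mice left out: Ly86 passed without B6-rich mouse 3 (-0.80, adjusted p = 0.0385) or SJL-richest mouse 5 (-0.79, adjusted p = 0.0275). With array set as a term it was 0 with no filter, 0 with the block, 0 on earlier arrays only, and 0 to 1 with single mice left out. The Ly86 call was lost without DBA-rich mouse 1, 2 or 7 or SJL-rich mouse 3, 4, 5 or 6 (adjusted p between 0.0501 and 0.103). The causes were not tested.

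Counts over all probes moved by more than 1.5 times in several settings. The value table gave 78 calls in DBA against B6 (1672 otherwise), 93 in DBA against SJL (1523) and 0 in SJL against B6 mice (1841), and the 6 agreeing arrays gave 986, 892 and 824 in the same order. The block gave 564 in DBA-rich against SJL-rich (1150), 175 in 50% DBA against SJL-richest (321), 162 in B6-rich against SJL-richest (332), 157 in DBA-rich Tg against DBA inbred (254), 15 in SJL-rich Tg against SJL inbred mice (2164) and 2 for each Abeta40 slope (205 over all Tg arrays, 504 with array set). The Tg term gave 2891. The slope with array set gave 321 with no filter, 157 on later and 0 on earlier arrays, and the slope over all Tg arrays 108 with no filter, 127 on probes detected on all arrays and 0 on earlier arrays. The difference between the DBA and SJL sides (54) gave 307 under the value table, 33 with no filter, 25 on probes detected on all arrays and 16 with the block. B6-rich against SJL-richest gave 209 with no filter and 165 on those arrays alone, SJL-rich Tg against SJL inbred 1442 on probes detected on all arrays, and DBA-rich Tg against DBA inbred 157 under the value table. With single mice left out, counts ran over 113 to 367 (50% DBA), 139 to 479 (B6-rich), 101 to 270 (DBA-rich Tg against DBA), 1430 to 2126 (SJL-rich Tg against SJL), 21 to 98 (difference of sides), 0 to 403 (slope over all Tg arrays) and 192 to 701 (slope with array set). No paired analysis was possible because replicate numbers only name arrays within a group. The number of arrays limits the precision of every value, and P2ry12 lay near the detection limit.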
